A study of Mus musculus with 108 samples.

Results

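The sites described here are distal pieces of reporter-tested mouse chromatin that lie far from every annotated protein-coding gene start. Overlapping distal fragments of 95 sorted libraries were merged into 58916 sites, and a site was kept when it lay more than 100 kb from every start in the protein-coding gene records of the mm10 annotation. This left 11701 far distal sites, 19.9% of all distal sites, against 47215 other distal sites. They held 54689 of the 395571 distinct distal fragments (13.8%). The choice used the position of a site alone, and 5 sites on sequences outside the main chromosomes, which had no distance, were counted with the other sites.

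The data came from a screen that asked which stretches of open chromatin can drive a reporter gene along the path from mouse embryonic stem cells to blood. Fragments released by Tn5 transposase from open chromatin of each of 5 stages were cloned ahead of the HSP68 minimal promoter and a gene for Venus-YFP, a yellow fluorescent protein, and each cassette was placed at Hprt in HM-1, an embryonic stem cell line with a defective Hprt gene. The stages were embryonic stem cells (ES), FLK1+ hemangioblast cells (HB), hemogenic endothelium sorted as KIT+ TIE2+ CD41- (HE1) or KIT+ TIE2+ CD41+ (HE2), and KIT+ TIE2- CD41+ hematopoietic progenitors (HP), all made by differentiation in serum. At every stage YFP set the gate of a cell, which was Negative, Low, Medium or High in replicates 1 to 4, and Negative, Low or Medium/High in replicate 5. YFP-positive cells here are the union of the gates above Negative within a stage and replicate, which gave 25 positive sets. Values given from ES to HP follow the order ES, HB, HE1, HE2 and HP. The cloned material itself was read as 5 lists from the pDONR entry vector and 5 from the pSKB reporter vector, 1 per stage in each. All cells were of 1 line, so the replicates do not differ in genotype, and the labels do not say what separates one replicate from the next. P-values measure the spread between these samples, which may be technical.

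Enhancers are DNA elements that bind transcription factors and raise the activity of a promoter, at times from a great distance, by coming close to it in the folded chromosome. Genes for developmental regulators often lie beside long stretches of sequence without other coding genes, and such stretches can hold many elements that act in different tissues. In the reporter each fragment sat directly before the promoter at 1 fixed position, so the assay read the activity of the fragment itself and not its native distance.

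The far sites were not all in empty stretches of the genome. Of the 11701, 5165 (44.1%) lay inside the body of a protein-coding gene, 93.1% of these in introns and 357 over an exon. A further 1149 lay in the body of a long noncoding RNA gene and in no protein-coding gene, and 5317 (45.4%) lay in no annotated gene of any kind. Within 100 kb of 2977 far sites there was a start of a further transcript of a protein-coding gene, which the gene record does not give. A start of any annotated gene, noncoding ones included, lay within 1500 bp of 488 far sites (4.17%), and 2344 (20.0%) were more than 100 kb from a start of any kind. The name gene desert therefore fitted part of them only, and they are called far distal sites throughout. The median distance from the nearest protein-coding start was 179 kb, 5006 sites lay beyond 200 kb, 1036 beyond 500 kb and 163 beyond 1000 kb, and the farthest lay at 2290 kb. The last sites inside the limit lay at 100004, 100009 and 100012 bp, and the nearest ones outside it at 99980, 99985 and 99996 bp. Positions more than 100 kb from a protein-coding start made up 44.6% of the genome, against 19.9% of the distal sites. The far share of a chromosome's distal sites ran from 12.6% on chromosome 7 to 30.8% on chromosome 13, with 0 of 9 sites on chromosome Y.

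Far sites were thinly sampled, and the libraries differed widely in size. Replicates 1 and 2 held 4633 to 45186 distal fragments per library (median 12688, 40 libraries), of which 497 to 6675 were in far sites. Replicates 3 to 5 held 126 to 5919 (median 421, 55 libraries), of which 13 to 747 were in far sites. A library touched 12 to 3497 far sites (median 236). Among the HE1 libraries, Negative replicate 1 shared 4786 of its 6675 far fragments with Medium replicate 2 (78.5% of the far fragments of the latter), and Negative replicate 3 shared 135 of its 163 with Low replicate 4. These 4 libraries of different labels shared more of their pooled distal fragments than any other pair of the 95, at 58.9% and 42.5%, and values at HE1 that rest on them are also given without them, which leaves 3 Negative replicates at that stage. The next pairs were of the same replicate number. They were HE1 Negative and HE2 Negative of replicate 4 (31.2%), HE2 Low and HE2 Negative of replicate 4 (30.5%), and HB Medium and HP High of replicate 2 (28.7%). Values without the 4 libraries still hold these pairs, apart from any of the 4.

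The 3 far sites that were positive in the largest number of sets are shown by the 200 bp of each that most fragments covered. They show what the most recurrent far elements look like, and in the runs below the capitals mark any of the motif words that are spelled out with the motif counts further on. All runs are the plus strand of mm10, 5′ to 3′.
Site at chr12:17881719-17881918, nearest start Hpcal1: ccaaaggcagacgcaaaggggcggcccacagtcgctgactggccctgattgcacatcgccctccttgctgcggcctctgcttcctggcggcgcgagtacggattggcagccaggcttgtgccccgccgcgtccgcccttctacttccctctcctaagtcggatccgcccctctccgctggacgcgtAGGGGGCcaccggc
Site at chr10:4107743-4107942, nearest start Mthfd1l: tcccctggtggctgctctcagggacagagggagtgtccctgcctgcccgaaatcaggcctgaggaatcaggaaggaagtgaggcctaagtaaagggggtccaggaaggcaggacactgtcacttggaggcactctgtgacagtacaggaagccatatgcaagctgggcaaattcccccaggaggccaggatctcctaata
Site at chr11:79704341-79704540, nearest start Rab11fip4: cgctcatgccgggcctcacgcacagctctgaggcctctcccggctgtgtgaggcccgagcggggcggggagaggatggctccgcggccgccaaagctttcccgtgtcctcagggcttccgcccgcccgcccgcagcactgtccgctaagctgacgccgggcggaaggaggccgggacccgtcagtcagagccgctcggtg
The first and the third were rich in G and C, at 68.5% and 73.0%, and the second held 57.0%. The far sites most often positive next to Sox2, a pluripotency factor, and Myc, a regulator of growth, are shown because both genes are known for enhancers far from their promoters.
Site at chr3:34795634-34795833, nearest start Sox2: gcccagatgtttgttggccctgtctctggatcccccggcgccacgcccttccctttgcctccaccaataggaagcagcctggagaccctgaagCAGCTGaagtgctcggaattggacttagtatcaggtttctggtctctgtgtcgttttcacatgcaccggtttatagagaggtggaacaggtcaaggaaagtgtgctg
Site at chr15:62092876-62093075, nearest start Myc: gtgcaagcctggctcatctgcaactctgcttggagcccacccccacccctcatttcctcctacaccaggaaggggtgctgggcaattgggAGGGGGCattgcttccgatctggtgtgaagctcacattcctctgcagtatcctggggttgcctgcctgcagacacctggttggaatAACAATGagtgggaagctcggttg
The Sox2 run held 1 E-box word, and the Myc run held 1 part of the CTCF motif and 1 SOX word on the minus strand. The Myc site lay in Pvt1, a long noncoding RNA gene beside Myc.

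The site nearest Hpcal1 (chr12:17881388-17882363) lay 191 kb from that start and covered the start of a pseudogene, Gm49326. It was positive in 22 of the 25 sets, the most of any far site, and in 18 of the 25 Negative sets. In replicates 1 to 5 it had 12, 11, 5, 2 and 0 positive fragments in ES, 14, 14, 1, 1 and 1 in HB, and 16, 17, 0, 6 and 1 in HE1. It had 23, 17, 3, 3 and 0 in HE2, and 17, 11, 2, 4 and 1 in HP. Presence at every stage follows from the choice of a site positive in 22 of the 25 sets. Its fragments were most numerous in the replicates with the longest lists. Its HE1 numbers in replicates 2 and 4 were 8 and 4 without the libraries that share fragments. Negative cells of the same site held 62 fragments against 182 in positive cells, and the plasmid lists held 1349 distinct fragments. Positive sets join several gates and were longer than Negative lists, with at most 24858 against 10036 distal fragments in ES and 66007 against 11492 in HP. Positive and Negative counts of a site or gene, here and below, are not corrected for this and do not show enrichment in positive cells.

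The site nearest Mthfd1l (chr10:4107424-4108220), in an intron of that gene for a mitochondrial enzyme of folate metabolism, was positive in 21 sets and Negative in 16. It had 191 positive and 63 Negative fragments, and 859 in the plasmid lists. The site nearest Rab11fip4 (chr11:79704004-79704986) covered the start of a long noncoding RNA, Gm11205, was positive in 20 sets and Negative in 17, and had 252 positive and 84 Negative fragments and 1593 in the plasmid lists. A start of a further protein-coding transcript lay 43.4 kb from it. For all 3, positive fragments were found at all 5 stages and Negative cells carried the same sites. The site nearest Sox2 (chr3:34795279-34796143), 145 kb from the Sox2 start and in no gene, was positive in 9 sets with 15 positive and 3 Negative fragments. The site nearest Myc (chr15:62092663-62093176), 107 kb away, was positive in 12 sets with 65 positive and 17 Negative fragments.

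The share of distal fragments that fell in far sites was compared between stages, to ask whether distant elements took a different part in the reporter activity of one stage than of the next. In YFP-positive cells the far share was 11.1% ± 1.03, 12.2% ± 0.300, 13.3% ± 1.45, 12.5% ± 2.46 and 11.9% ± 1.51 from ES to HP (SD, n = 5 replicates each). Replicates 1 to 5 gave 10.7%, 10.7%, 12.5%, 11.8% and 9.91% in ES. They gave 11.98%, 12.07%, 12.41%, 11.99% and 12.65% in HB. In HE1 they gave 14.3%, 14.8%, 13.5%, 11.1% and 13.0%. The 2 deep replicates were the highest in HE1, and all but 1 HE1 value were above every HB value. HE2 gave 14.6%, 14.2%, 14.1%, 10.7% and 9.15%, and HP gave 12.1%, 11.9%, 14.3%, 10.7% and 10.7%. In HE2 the replicates fell into 3 near 14% and 2 of 503 and 645 distal fragments that were much lower, and the 95% Wilson interval of the lowest ran from 6.926% to 11.98%. Intervals of this kind cover counting error only.

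No step between stages passed the threshold. From ES to HB the difference was 1.08 percentage points, higher in 4 of 5 replicates (exact two-sided permutation test over 252 splits, p = 0.0635, adjusted p = 0.317 over 5 comparisons). From HB to HE1 it was 1.11 points, higher in 4 of 5 replicates (exact permutation p = 0.151, adjusted p = 0.377). From HE1 to HE2 the difference was -0.796 points, or -0.988 without the 4 HE1 libraries that share fragments (exact permutation test, adjusted p = 0.546). HE2 to HP differed by -0.600 points and ES to HP by 0.796, and with all libraries the exact permutation test gave these 3 an adjusted p of 0.627. Without the same 4 libraries, the step from HB to HE1 came to 1.30 points (exact permutation test, adjusted p = 0.0397), so this call depended on those libraries.

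**Figure D1:**
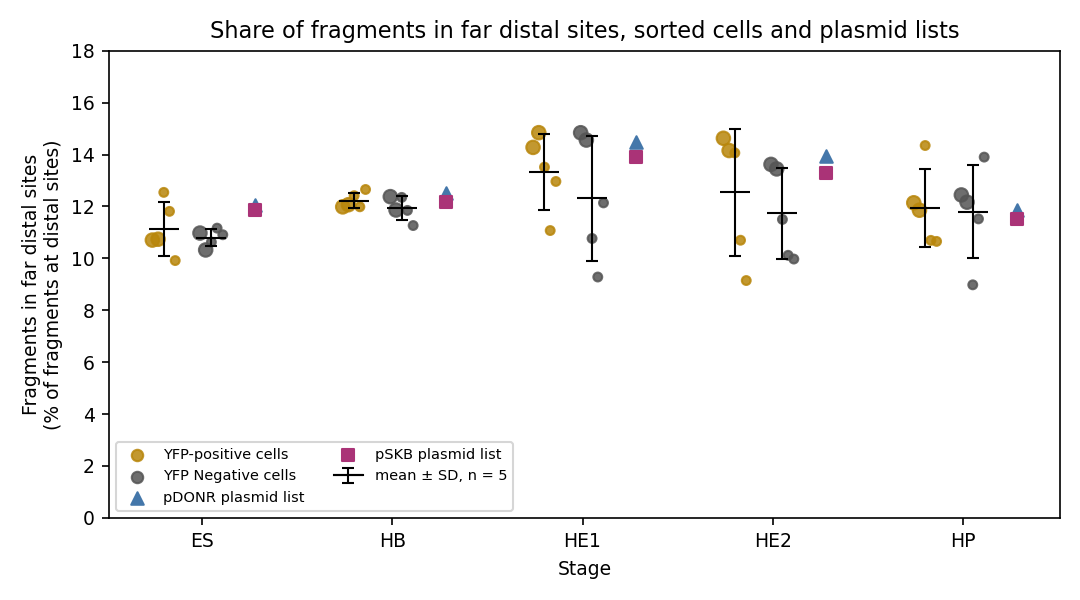
Far share of distal fragments (y axis, percent) by stage (x axis), for YFP-positive and YFP Negative cells of each replicate (points; larger points are replicates 1 and 2), with mean ± SD over 5 replicates, and for the pDONR and pSKB plasmid lists of the same stage (1 list each). Positive means run from 11.1% in ES to 13.3% in HE1, and the plasmid lists are likewise highest at HE1 (14.5% and 13.9%).

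Positive cells were set against Negative cells to ask whether far fragments were taken into or left out of YFP expression. The far share of Negative cells was 10.8% ± 0.329, 11.9% ± 0.456, 12.3% ± 2.40, 11.7% ± 1.75 and 11.8% ± 1.80 from ES to HP (SD, n = 5 each). Positive cells were higher by 0.342, 0.281, 1.02, 0.806 and 0.136 points from ES to HP. The adjusted p was 0.714 at 4 stages and 0.913 in HP (exact two-sided permutation tests, 5 stages), so none was larger than the spread between replicates. In the deep replicates 1 and 2 alone the difference was below 0 in HB (-0.0944 points), HE1 (-0.140) and HP (-0.306), so the sign at HB and HP came from the shallow replicates. At HE1 replicate 1 had 14.3% in positive and 14.8% in Negative cells, and replicate 2 had 14.8% and 14.6%. Both of these replicates hold a library that shares fragments, so the deep value at HE1 rests on those libraries. At HE1 the difference was 1.53 points without the 4 libraries that share fragments (exact permutation test, adjusted p = 0.714). The HP difference was higher in 1 of 5 replicates only and took its sign from replicate 3, and it was -1.17 points without that replicate. Medium and High gates together differed from Low by 0.609, 0.455, 0.770, 0.205 and 0.746 points from ES to HP, and the exact permutation tests gave adjusted p of 0.754 to 0.825. The HE1 value was 0.0357 points without the 4 libraries (exact permutation test, adjusted p = 0.913).

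The plasmid lists showed how the far sites were represented before any cell was sorted. At distal sites the pDONR lists held a far share of 12.1% for ES, 12.5% for HB, 14.5% for HE1, 13.9% for HE2 and 11.9% for HP. The pSKB lists held 11.9%, 12.2%, 13.9%, 13.3% and 11.5% in the same order. Each of these is a single list, and the widest 95% Wilson interval, of pSKB at HP, ran from 11.4% to 11.7%. The order of stages, HE1 before HE2 before HB before ES before HP, was the same in both vectors. The means of sorted positive cells had HE1 and HE2 first, as the plasmids did, and HB, HP and ES after them. In the deep replicates 1 and 2 the positive far share was 10.7% in both for ES, 11.98% and 12.07% for HB, 14.3% and 14.8% for HE1, 14.2% and 14.6% for HE2, and 11.9% and 12.1% for HP. ES and HB were thus below both of their plasmid lists in both deep replicates, and HE2 was above both of its lists. In HE1 and HP the lower value lay between the pSKB and pDONR lists and the higher one above both. The 14.8% of HE1 came from replicate 2, whose Medium library shares fragments with a Negative one. No test was made between sorted and plasmid lists, since each stage had 1 list per vector.

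The pSKB lists had a lower far share than the pDONR lists in 5 of 5 stages, with means of 12.6% ± 1.00 and 13.0% ± 1.16 (SD, n = 5 lists each). The difference of -0.418 points was not called (exact two-sided permutation p = 0.548). Paired by stage, the exact sign-flip test gave p = 0.0625, the smallest it can give with 5 pairs. The 3 PCR control lists of HM-1 cells had 25, 1690 and 175 fragments at distal sites, of which 1, 247 and 24 were in far sites. Per site the plasmids held fewer fragments in far sites, with a mean of 64.5 distinct fragments over the 10 lists (median 38) against 105 in other sites (median 57). At least 1 pSKB fragment was present at 97.9% of far and 99.0% of other sites. Of the distinct plasmid fragments in far sites 6.17% were found again in a sorted list, against 5.73% in other sites. This share was higher for fragments with more pSKB reads, from 4.32% without a pSKB read to 25.8% over 30 reads in far sites, and from 3.82% to 24.6% in other sites, and the far share was the higher one at each read number. Fragments of far sites were a little shorter, with a median of 177 bp against 190 bp, and 85.2% of the distinct sorted fragments in far sites were identical to a plasmid fragment against 83.0% in other sites.

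Far sites were counted as positive at fewer stages than other sites. With replicates pooled, 11068 far sites (94.6%) had a positive fragment at some stage, and 633 (5.41%) were seen in Negative cells alone. Of the positive far sites 5940 (53.7%) were positive at 1 stage, and 601 (5.43%) at all 5, against 45.3% and 12.7% of the positive other sites. Far sites also held fewer fragments, with a mean of 4.67 per site against 7.22, and 43.9% against 35.6% rested on a single fragment. Without the 4 HE1 libraries that share fragments, 53.5% of the positive far and 45.2% of the positive other sites were positive at 1 stage. Among sites with equal numbers of positive fragments, the share at 1 stage was lower in far than in other sites, with 37.4% against 40.4% at 3 fragments, 14.5% against 18.3% at 4 to 5, 2.84% against 4.43% at 6 to 10 and 0.101% against 0.454% at 11 to 20. The share at all 5 stages was lower as well at 11 to 20 fragments, with 22.0% against 29.4%, and the mean number of stages there was 3.61 against 3.77. At 3 fragments the mean number of stages was 1.71 in far and 1.67 in other sites. Positive at the most sets were 446 far sites (3.81%) with 10 or more of the 25, against 9.79% of other sites.

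By stage, the share of far sites that were positive was 21.4%, 29.4%, 51.2%, 45.3% and 31.0% from ES to HP. Other sites gave 30.7%, 37.9%, 51.2%, 49.3% and 43.9%. The HE1 shares were 44.6% of far and 46.7% of other sites without the 4 libraries that share fragments. HE1 was with either count the stage at which the shares of far and other sites were closest, and HP and ES were those at which they were farthest apart. HE1 also had the longest lists, with 79799 and 67575 distal fragments in positive cells of replicates 1 and 2, against 24207 and 24858 in ES. In Negative cells the pooled share of far sites was 11.4%, 13.8%, 33.7%, 18.4% and 15.3% from ES to HP, and the HE1 value was 12.2% without Negative replicates 1 and 3. The parts of list length and of the cloned material of each stage in these shares were not tested. Counted as sites in place of fragments, the far share of a positive set was 12.5% ± 1.32, 13.6% ± 1.15, 15.3% ± 3.14, 14.1% ± 3.80 and 12.8% ± 1.68 from ES to HP (SD, n = 5), and no step was called (adjusted p from 0.714 to 0.738, exact permutation tests).

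**Figure D2:**
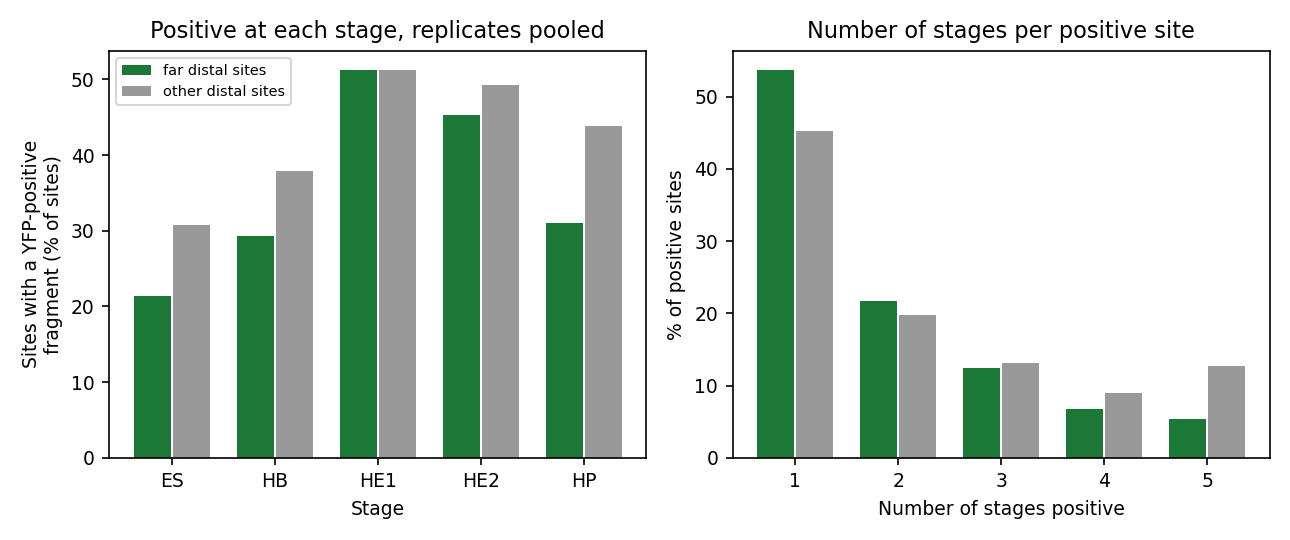
Left, percent of far (green) and other (grey) distal sites with a YFP-positive fragment at each stage, all replicates pooled. Right, percent of positive sites by the number of stages at which they were positive. The bars are level at HE1 (51.2% each), and 53.7% of positive far sites stand at 1 stage against 45.3% of other sites.

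Sites that were positive at one stage were followed to the next. Of the 2502 far sites positive in ES, 1126 were positive in HB, against 60.3% of other sites. The values were 46.1% and 57.8% from HB to HE1, 61.4% and 70.9% from HE1 to HE2, and 46.7% and 61.9% from HE2 to HP. The share of all sites that were positive at the later stage was itself lower in far sites at 3 of the 4 steps, with 29.4% against 37.9% in HB, 51.2% against 51.2% in HE1, 45.3% against 49.3% in HE2 and 31.0% against 43.9% in HP. Divided by that share, the pooled values were 1.53 for far and 1.59 for other sites from ES to HB, 0.899 and 1.13 from HB to HE1, 1.36 and 1.44 from HE1 to HE2, and 1.51 and 1.41 from HE2 to HP. Within replicates this ratio was higher in far sites in 4, 3, 3 and 5 of 5 replicates over the 4 steps (exact sign-flip p from 0.0625 to 0.438). After the division, the pooled values of far sites were thus still lower at 3 of the 4 steps, while within replicates far sites were more often higher. In the deep replicates 1 and 2 the ratio was lower in far sites from HB to HE1 and from HE1 to HE2, and higher at the other steps. Within replicates the undivided share was lower for far sites in 4, 5, 5 and 4 of 5 replicates over these steps. The mean differences were -9.04, -7.13, -5.53 and -5.99 points, with exact two-sided sign-flip p of 0.125, 0.0625, 0.0625 and 0.188, where 0.0625 is the smallest that 5 pairs allow. Without the 4 HE1 libraries the mean differences were -6.16 points from HB to HE1 (exact sign-flip p = 0.0625) and -4.42 from HE1 to HE2 (p = 0.25, lower in 4 of 5). The lower number of fragments per far site stands beside these values, and its part in them was not tested.

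Single far sites were then tested across the whole table of distal sites. The test was limma on log2 of fragments per 10000 listed distal fragments, with 1 added, run on every site found in 4 or more of the 10 sets under comparison. Positive was set against Negative and high against low gates at each of 5 stages, and positive cells between stages, in 15 comparisons with 212 to 1826 far sites tested in each. None of the far sites passed an adjusted p of 0.05, and the percentage of all tested sites that did was 0.0% in each comparison. At an unadjusted p under 0.05 there were 0 to 33 far sites per comparison. The most, 33 of 675 (4.89%), were found from ES to HB, against 3.47% of all sites tested there. Fragments summed over the far sites nearest each gene gave the same picture in limma, with 0 of 306 to 1338 far gene rows called per comparison and 0 to 37 at an unadjusted p under 0.05. Here too ES to HB had the most, 37 of 783 (4.73%), against 2.97% of all rows. The median log2 difference of the far sites ran from -0.18 to 0.12 over the 15 comparisons, and that of all sites from -0.19 to 0.15. The absence of calls does not show that single far sites were equal between stages or gates. Simulated data were made for positive against Negative cells of HE1 and for ES to HP. There limma called 0 of 200 sites or gene rows that were changed 4-fold. Of 200 changed 16-fold it called 37 and 54 sites, and 87 and 86 gene rows.

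The base composition of the far sites differed from that of the other sites and of the genome. In the 300 bp around the centre, GC content was 48.8% ± 5.55 in far sites and 51.4% ± 6.21 in other sites (SD over sites), and 41.8% in windows spaced evenly over the genome. It was 49.5% at 100 to 200 kb, 48.2% at 200 to 500 kb and 46.3% beyond 500 kb. Repeats covered 12.1% of the window in far sites and 12.7% in other sites, against 34.2% in genome windows. Beyond 500 kb the repeat share was 17.4%, and among the far sites positive in ES alone 13.6% were covered by repeats over more than 50% of the window, against 3.08% to 3.76% of those positive at 1 later stage alone. Other sites had the same order, with 10.5% for ES alone against 4.42% to 5.39%.

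Recurrence went with base composition in far and other sites alike. Of the 2769 far sites with under 45% GC, 0.469% were positive in 10 or more sets, and of the 311 with 60% or more, 22.8% were. In other sites these shares were 1.38% and 33.5%. The mean number of distinct plasmid fragments per far site was 32.5 in the first group and 241 in the second, so the sites most often positive were also those most often cloned. Among far sites positive in 10 or more sets, GC content was 54.8% ± 6.92, the median width 719 bp, and 9.42% lay within 1500 bp of an annotated start of any gene, against 48.0% ± 5.21, 215 bp and 3.77% of those positive in 1 to 3 sets. The parts of cloning and of sequence in the recurrence were not tested.

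**Figure D3:**
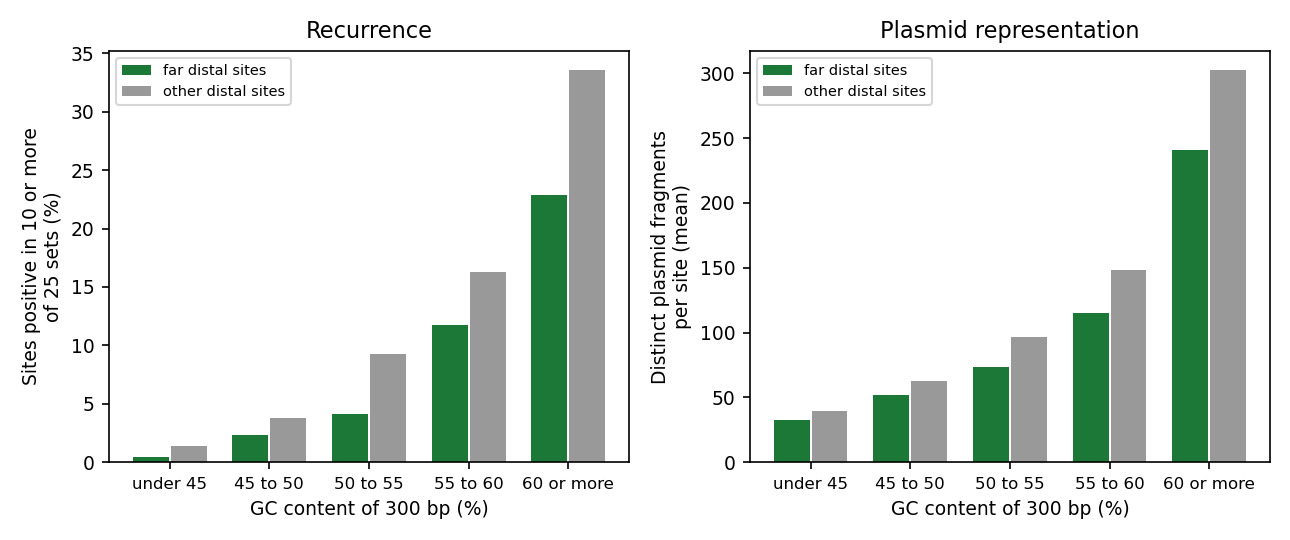
Sites grouped by the GC content of 300 bp around their centre (x axis, percent). Left, percent of sites positive in 10 or more of 25 sets. Right, mean number of distinct plasmid fragments per site. Both are higher at higher GC content in far (green) and other (grey) sites, from 0.469% to 22.8% and from 32.5 to 241 fragments in far sites.

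Short motif words of factors with roles in these stages were counted in the same 300 bp on both strands. The words were AGATAA for GATA factors of blood and mesoderm, TGTGGTT for RUNX factors of definitive blood, ATGCAAA for the octamer of POU factors such as OCT4, CATTGTT for SOX factors, TGACTCA for AP-1, CATTCCA for TEAD, CGGAAGT for ETS factors, CAGCTG as an E-box and AGGGGGC as a part of the CTCF motif. None of these words is contained in another. A word is a match of letters and not a proven site. The GATA word was in 22.3% of far and 17.2% of other sites, and in 11.2% of the 32851 RefSeq promoters of the same length. The SOX word was in 7.97% and 5.21% of sites and 3.78% of promoters. AP-1 had 14.7% and 12.5% of sites and 5.20% of promoters, the octamer 6.12% and 4.67% with 4.63% of promoters, and TEAD 7.06% and 5.88% with 4.29%. The CTCF part was in 6.17% of far and 9.39% of other sites, and in 10.6% of promoters. RUNX with 8.83% and 8.45% (promoters 5.27%), ETS with 1.38% and 1.49% (promoters 6.42%) and the E-box with 22.2% and 22.9% (promoters 16.3%) were close between far and other sites. Windows spaced over the genome held the GATA word in 19.2%, AP-1 in 4.67% and the octamer in 7.69%. They held SOX in 5.92%, TEAD in 4.76%, RUNX in 6.73%, ETS in 0.586%, the E-box in 10.7% and the CTCF part in 2.50%. Far and other sites also differed in GC content, as given above, and its part in these shares was not tested.

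Far sites that were positive at 1 stage alone differed in the words they held. Each stage had its own plasmid lists, and the words, here and below, were not set against them. The cloned material of a stage and its reporter activity can therefore not be told apart in these shares. The octamer was in 10.2% of the 982 positive in ES alone and in 4.79% to 6.23% of those positive at 1 later stage alone. The GATA word was in 12.32%, 18.01%, 24.95%, 22.76% and 25.26% of those positive at ES, HB, HE1, HE2 or HP alone. RUNX stood at 15.3% for HE2 and 15.8% for HP, against 7.13% for ES, 5.47% for HB and 6.17% for HE1. AP-1 was in 20.9% for HE1 and 7.14% for HB, and SOX in 12.3% for HE1 and 3.72% for HB. Far sites positive at all 5 stages held the GATA word in 9.82% and the CTCF part in 11.5%. Without the 4 HE1 libraries that share fragments, 1414 far sites in place of 1864 were positive at HE1 alone, and they held the GATA word in 25.8%, AP-1 in 21.2%, SOX in 12.2% and RUNX in 6.22%. In other sites of 1 stage alone the order was alike, with the GATA word in 9.83% for ES and 20.3% for HP, and RUNX in 6.98% and 13.5%.

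The same shares were taken per replicate, as the percentage of the far sites of a positive set that held a word, and compared over replicates. This comparison was chosen after the data had been seen, and covered 9 words in 10 comparisons. The GATA word was in 11.23%, 10.99%, 13.85%, 15.04% and 10.34% of the far sites of the 5 ES replicates, and in 21.1%, 19.8%, 17.8%, 18.3% and 21.1% in HB. In HE1 it was in 24.7%, 25.3%, 25.5%, 22.3% and 25.9%, and in HP in 24.2%, 24.6%, 33.7%, 18.4% and 25.0%. All HB values lay above all ES values, and all HE1 values above all HB values. ES to HB differed by 7.31 points, HB to HE1 by 5.16 and ES to HP by 12.9, each in 5 of 5 replicates. Each had p = 0.00794 in the exact two-sided permutation test, the smallest it can give, and an adjusted p of 0.0893 over 90 tests, which did not pass. From HB to HE1 the SOX word differed by 4.71 points (4.84% ± 1.55 to 9.55% ± 1.33), AP-1 by 7.198 (8.01% ± 1.79 to 15.2% ± 4.24) and the CTCF part by -4.24 (11.2% ± 2.41 to 7.01% ± 1.24), with the same p and adjusted p (exact permutation test, SD, n = 5). RUNX was 6.81% ± 0.961 in ES and 11.7% ± 2.51 in HP (exact permutation p = 0.0159, adjusted p = 0.143). None of the 90 tests passed an adjusted p of 0.05, and 17 had an unadjusted p under 0.05. The GC content of the same far sites was 52.7% ± 0.694 in HB and 50.6% ± 1.56 in HE1 (SD, n = 5), and its part was not tested. Without the 4 HE1 libraries that share fragments, HB to HE1 gave 4.57 points for GATA (exact permutation p = 0.0317), 5.01 for SOX and 8.38 for AP-1 (p = 0.00794 each), and -3.25 for the CTCF part (p = 0.0952), with adjusted p from 0.119 to 0.429.

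Other sites had steps in the same direction. There the GATA word differed by 4.36 points from ES to HB, 2.72 from HB to HE1 and 6.496 from ES to HP, RUNX by 3.00 from ES to HP, AP-1 by 5.49 and SOX by 1.70 from HB to HE1 (exact permutation p from 0.00794 to 0.0238, adjusted p from 0.102 to 0.179). The difference between the far and the other step was tested within replicates, where the exact sign-flip test can give no p below 0.0625. The exact test gave 2.96 points for GATA from ES to HB (p = 0.1875), 2.43 for GATA from HB to HE1 (p = 0.0625, higher in 5 of 5), 3.00 for SOX (p = 0.0625) and 1.71 for AP-1 (p = 0.375) from HB to HE1. None of these steps was therefore shown to be particular to far sites.

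The words were also counted in Negative cells. The GATA word was in 11.7% ± 1.04, 20.4% ± 2.70, 21.1% ± 3.79, 23.1% ± 6.71 and 23.8% ± 2.91 of the far sites of Negative cells, again from ES to HP (SD, n = 5). The SOX word in Negative cells was 9.45% ± 1.58 in HE1 and AP-1 16.2% ± 4.19, but Negative replicates 1 and 3 of that stage share most of their far fragments with positive libraries. Without the 4 libraries concerned, the Negative values in HE1 were 20.3% ± 4.62 for GATA, 9.55% ± 1.85 for SOX and 16.9% ± 3.35 for AP-1 (SD, n = 3), and the positive values 24.2% ± 2.56, 9.85% ± 0.926 and 16.4% ± 4.64 (SD, n = 5). In HE1 the GATA word was higher in positive than in Negative cells in 5 of 5 replicates (exact permutation p = 0.0476, adjusted p = 0.252), and without the 4 libraries the exact permutation p was 0.179 (higher in 3 of 3). In HP the positive cells held the SOX word in 3.89% ± 1.73 and Negative cells in 5.81% ± 0.399, and the TEAD word in 4.68% ± 2.09 and 8.16% ± 1.89 (exact permutation p = 0.00794, adjusted p = 0.0893 for each, lower in positive cells in 5 of 5 replicates). In the deep replicates 1 and 2 of HP, SOX stood at 5.26% and 5.41% in positive and 5.68% and 5.45% in Negative cells. TEAD stood there at 6.21% and 6.20% against 7.54% and 6.82%. The larger gaps were in replicates 3 to 5, whose Negative sets held 31 to 236 far sites.

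**Figure D4:**
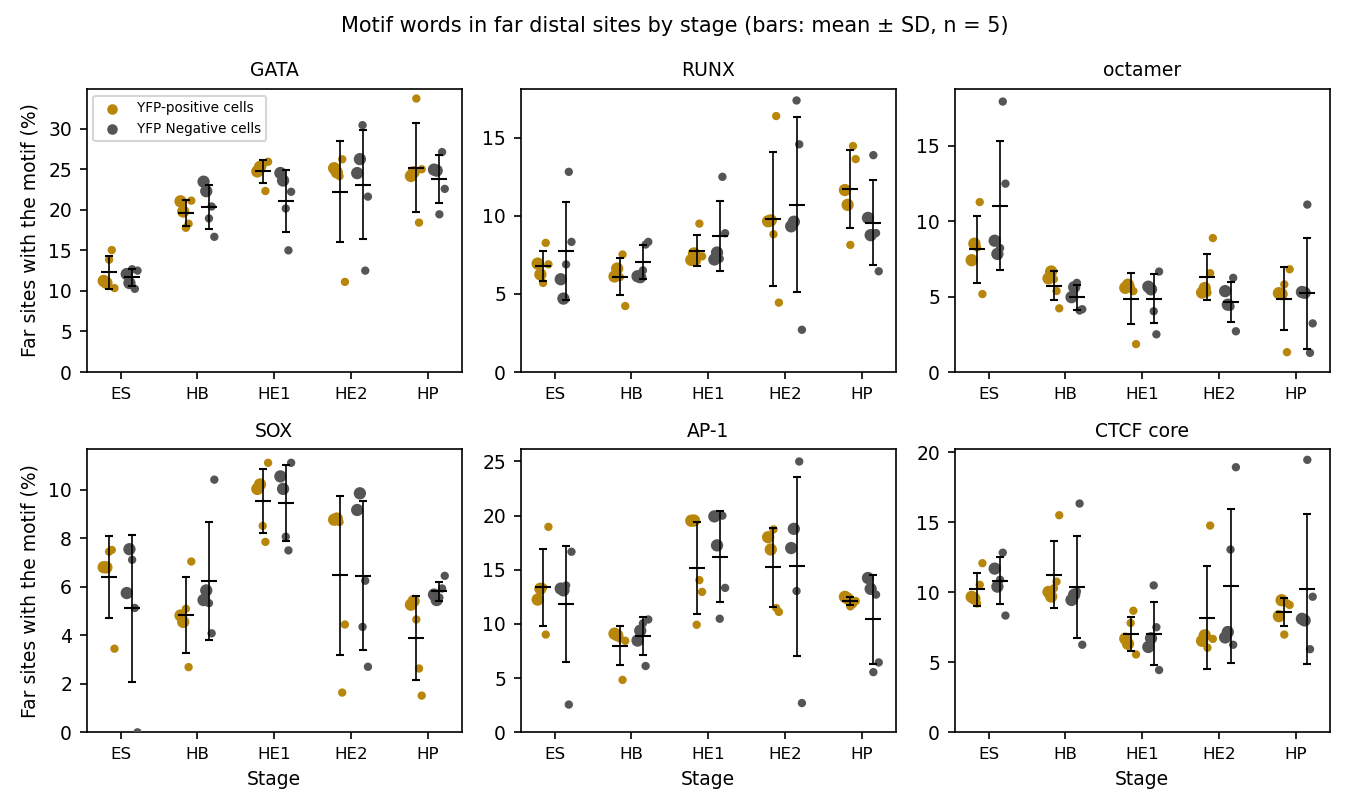
Percent of the far sites of a set that hold a motif word (y axis) by stage (x axis), for YFP-positive and YFP Negative cells of each replicate (points; larger points are replicates 1 and 2), with mean ± SD over 5 replicates. The GATA word runs from 12.3% in ES to 24.8% in HE1 in positive cells, with Negative cells at 11.7% and 21.1%.

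Far sites were grouped by the gap between neighbouring protein-coding starts in which they lay. They occupied 1921 gaps, 369 of them with 1 far site, and the 357 gaps with 10 or more held 51.3% of the far sites. The 2 fullest had 45 each. The gap from Pde4d, a phosphodiesterase that breaks down cyclic AMP, to Rab3c spans 1831 kb of chromosome 13, and 40 of its far sites lay inside gene bodies and 41 within 100 kb of a further transcript start. The gap from Adamts9 to Magi1, a scaffold protein of cell junctions, on chromosome 6 had 28 in Magi1. Next were Pard3 to Nrp1, a VEGF co-receptor of endothelium, with 44 sites on chromosome 8, and Galnt17 to Auts2 with 43 on chromosome 5. Slit3 to Pank3 had 39 on chromosome 11 and was the densest of the 10 gaps with the most far sites. It had 8.70 far sites per 100 kb of the part of the gap that lies beyond 100 kb from both starts. Zfhx3 to Pmfbp1 (37, chromosome 8), Rad51b to Zfp36l1 (35, chromosome 12), Etl4 to Arhgap21 (33, chromosome 2), Myc to Gsdmc (33, chromosome 15) and Rbfox1 to Tmem114 (32, chromosome 16) completed the 10. Only the Myc gap had no far site inside a protein-coding gene, and in the other 9 from 19 to 41 far sites lay inside gene bodies.

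The numbers of positive far sites by stage were set side by side for the gaps. These numbers also follow the length of the lists, which were longest in HE1, where all far sites together were most often positive. They were not set against the plasmid lists of the same stage. In the Myc gap the numbers of positive sites were 4, 9, 20, 21 and 10 of 33 from ES to HP. In the Pard3 to Nrp1 gap the numbers were 4, 5, 17, 20 and 15 of 44. By number of sites, Slit3 to Pank3 went another way, with 11, 17, 12, 7 and 5 of 39, and Galnt17 to Auts2 had its highest number in HB (17 of 43). Etl4 to Arhgap21 had 12 of 33 in ES, more than in HB (6). As fragments per 10000 listed distal fragments, the Myc gap had 1.70 ± 1.89, 5.82 ± 6.80, 5.49 ± 3.29, 10.5 ± 6.87 and 0.757 ± 1.25 from ES to HP (SD, n = 5), with fragments in 3, 4, 4, 5 and 2 of 5 replicates. In the deep replicates 1 and 2 this gap had 6.52 and 5.62 in HE1 and 4.79 and 4.72 in HE2, the reverse of the means. Replicates 4 and 5 of HE2, with short lists, had 15.5 and 19.9. Replicate 2 of HE1 had 38 fragments in the gap, and 13 without its library that shares fragments. The HE1 mean of the Myc gap was 3.97 ± 3.94 without the 4 libraries that share fragments, with 19 positive sites in place of 20. In the other 9 gaps the number of HE1 sites was then lower by 0 to 3. Per 10000 listed distal fragments, Slit3 to Pank3 had 2.62 ± 2.88, 2.00 ± 1.91, 3.36 ± 4.78, 1.58 ± 1.60 and 0.576 ± 0.790 from ES to HP (SD, n = 5). On this scale its HB mean was below those of ES and HE1, and its HE1 mean was 3.33 ± 4.79 without the 4 libraries. The spread between replicates was as large as most of these means.

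**Figure D5:**
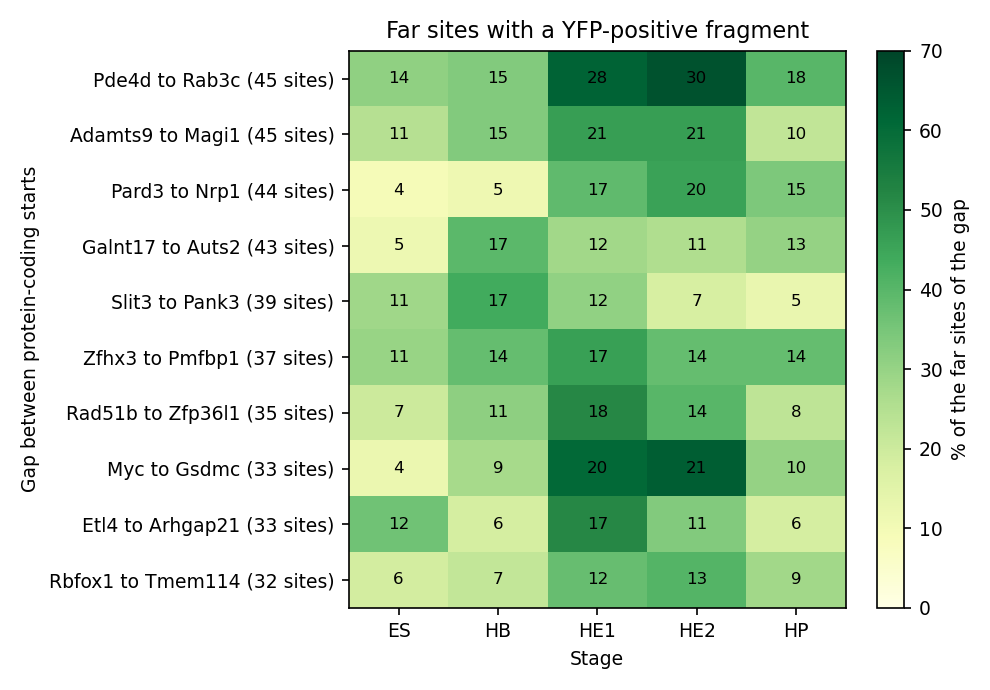
Number of far sites with a YFP-positive fragment (figures in the cells) at each stage (x axis) in the 10 gaps with the most far sites (y axis), replicates pooled; colour gives the percent of the gap's far sites. Myc to Gsdmc and Pde4d to Rab3c are darkest at HE1 and HE2, and Slit3 to Pank3 is darkest at HB.

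Genes of known roles were looked up among the nearest starts of far sites, from 5 lists. Of all 21992 protein-coding genes, 2733 (12.4%) were the nearest start of at least 1 far site. Of the blood factors 10 of 25 were, of the endothelial genes 9 of 22, of the pluripotency factors 10 of 20, of the mesoderm and cardiac factors 14 of 22, and of the neural and other developmental factors 23 of 30. Nearness does not show that a site acts on that gene. The 126 far sites nearest blood factors were positive at 17, 37, 66, 67 and 44 sites from ES to HP. The 90 nearest endothelial genes gave 12, 18, 50, 50 and 34, and the 86 nearest pluripotency factors 22, 21, 40, 26 and 19. The 95 nearest mesoderm and cardiac factors gave 13, 29, 46, 43 and 19, and the 219 nearest neural and other factors 48, 65, 95, 89 and 62. All far sites together were positive most often in HE1 too, as given above, and these numbers were not set against the plasmid lists of each stage. Without the 4 HE1 libraries that share fragments, the HE1 numbers of the lists were 57, 48, 34, 37 and 83 in the same order.

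Among blood factors, Myc had the most positive far fragments, with 217 in 31 far sites 107 to 853 kb from its start, and 68 Negative fragments. Its positive fragments numbered 19, 35, 91, 51 and 21 from ES to HP, and such numbers follow the length of the lists, which were longest in HE1. Per 10000 listed distal fragments Myc had 1.70 ± 1.89, 5.93 ± 6.76, 3.72 ± 3.40, 9.79 ± 7.41 and 0.818 ± 1.22 (SD, n = 5), so that on this scale its mean was highest in HE2. In the Myc to Gsdmc gap, replicates 1 and 2 had the reverse order of HE1 and HE2, as given above. The HE1 mean of Myc was 2.17 ± 3.00 without the 4 libraries that share fragments. Pvt1 held 16 far sites with 175 positive fragments. Mecom, a zinc finger factor of blood stem cells, had 108 positive fragments in 16 far sites, with means of 0, 0.463, 3.19, 2.29 and 0.575 per 10000 from ES to HP, and 10 of the 16 lay within 100 kb of a further Mecom or other protein-coding transcript start. Zfpm1, the GATA1 partner FOG1, had 103 in 8 sites. Runx1, the regulator of the step from endothelium to blood, had 86 in 19 sites, with means of 0.315, 4.44, 2.52, 0.928 and 0.666 per 10000 from ES to HP. The Runx1 site most often positive (9 sets) lay in the gene itself, 110 kb from the start of the gene record and 18.1 kb from a further protein-coding transcript start. Meis1, a homeobox factor of blood progenitors, had 64 positive fragments in 13 sites, with means of 0.402, 2.301, 2.21, 1.33 and 0.788 per 10000. The SDs of Mecom, Runx1 and Meis1 were as large as or larger than nearly all of these means. Myb, a factor of progenitor growth, had 0 far sites nearest to it.

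Among endothelial genes, Ets1, a factor of endothelium and lymphocytes, had 93 positive far fragments in 16 sites, with means of 0.407, 0.519, 5.02, 2.39 and 0.121 per 10000 from ES to HP. Tcf4, an E-protein, had 89 in 16, Nrp1 had 65 in 20, and Kdr, which codes for FLK1, had 47 in 6, with means of 0.163, 0.459, 1.62, 0.433 and 0.606 per 10000. The HE1 mean of Kdr was 3.36 ± 6.57 (SD, n = 5) without the 4 HE1 libraries that share fragments. It then rested on 11 fragments in place of 14, with 1 of them in the short list of replicate 4. Among pluripotency factors Klf4 had 137 in 5 far sites, 118 to 586 kb away, with means of 2.06, 1.21, 2.67, 1.77 and 2.74 per 10000 from ES to HP. Nr5a2 had 75 in 17, Jarid2 had 62 in 10 and Mycn 53 in 16. With all libraries the SDs at HE1 were 4.93 for Ets1, 2.76 for Kdr and 3.64 for Klf4 (n = 5). Sox2 had 24 in 10 sites, with means of 1.04 ± 1.11, 0.115 ± 0.258, 0.159 ± 0.230, 0.500 ± 0.777 and 0.121 ± 0.197 per 10000 (SD, n = 5), and 5 of the 10 sites were positive in ES against 1 or 2 at each later stage.

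Among mesoderm and cardiac factors, Mef2c, a factor of heart and endothelium, had 125 positive far fragments in 10 sites, with means of 4.13, 4.23, 3.83, 5.53 and 2.26 per 10000 from ES to HP, and 0.608 in HE1 without the 4 libraries that share fragments. Zfpm2, a GATA4 partner of the heart, had 70 in 9, Zeb2 had 43 in 16 and Bmp2, a ligand of mesoderm formation, had 31 in 10, with 0 fragments in ES and HP and means of 0.470, 0.310 and 0.360 per 10000 at the stages between. Among neural and other factors, Sox9, a factor of cartilage and neural crest, had 253 in 35 sites, with means of 4.70, 2.88, 4.93, 3.09 and 1.54 per 10000. Nfib had 182 in 26, Zfhx3 85 in 16 and Tshz2 73 in 7. With all libraries the SDs at HE1 were 6.99 for Mef2c, 0.543 for Bmp2 and 4.23 for Sox9 (n = 5). In limma none of the 266 tests on the far fragments of 22 genes (the 4 of each list, with Sox2 and Meis1) passed (smallest adjusted p = 0.971), and 3 had an unadjusted p under 0.05. These were Meis1, higher in high than in low gates of HB by 1.60 ± 0.70 on the log2 scale (SE), Myc, lower in HP than in HE2 by a log2 difference of -2.53 ± 1.12, and Tcf4, higher in HB than in ES by 1.69 ± 0.84. Of all gene rows tested, 2.09%, 0.755% and 2.97% were under the same unadjusted cut in these comparisons, in that order. The 3 genes are therefore not set apart from the other rows.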

How the data were processed

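Reporter fragments were read in 95 sorted libraries, 10 plasmid lists and 3 HM-1 control lists. Per the methods and the labels, the authors trimmed reads with Trim Galore, aligned them to mm10 with Bowtie2, kept unique pairs with SAMtools, wrote each pair as an interval with bedtools and removed duplicates. They filtered against the control lists, the plasmid lists and open chromatin peaks, and split the lists by distance from transcription starts. The sorted lists were deposited as intervals without counts, so depth in reads is unknown and no count model was used. The plasmid and control lists were deposited by the authors with a count of reads per fragment, not normalized.

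Sorted starts were moved by 1 bp to the plasmid scale, and overlapping distal intervals merged. Distances ran to the starts of GENCODE protein-coding gene records. Far shares were compared over 5 replicates by exact permutation tests with Benjamini-Hochberg adjustment, and sites and gene sums by limma 3.58.1 (R 4.3.3), with Python 3.11.15 for the rest. Intervals are 95% Wilson intervals. The tests were checked on simulated data, where limma missed all rows changed 4-fold, as given above. Promoter sequences were those of RefSeq, and genomic ones of GRCm38.

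The rule for names gave the 3 far sites positive in most sets, up to 3 called sites or gene rows per limma comparison and direction (there were none), the 10 gaps with the most far sites, the 4 genes of each list with the most positive far fragments, and Sox2, Myc, Runx1, Myb and Meis1. Members, lists and tests were chosen with earlier results of these data known. Alternatives were the distance, the starts used, gene bodies, pooling, the plasmid filter, the replicate block, left-out replicates and libraries, and the pseudocount, filter and normalisation in limma. Same-numbered sets deviated together in every replicate (correlation over 0.1) in HE2 positive against Negative only (0.169 to 0.510 over sites), so the number was not taken to pair the other comparisons.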

Additional observations from a re-analysis of the deposited data

Results flagged for a closer look

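Dixon's criterion was applied to 92 groups of 5 values, which were far shares of sorted sets and plasmid lists and shares of far sites holding a motif word. In 10 groups 1 value lay far from the rest, and all 10 were motif shares over 5 replicates. Chance flags about 1 in 20 groups, and all 10 were in replicates 3 to 5, in sets of 36 to 242 far sites. The GATA word stood at 11.1% in HE2 positive replicate 5 (others 24.1% to 26.2%), the RUNX word at 9.50% in HE1 positive replicate 4 (others 7.09% to 7.60%) and the octamer at 1.85% in HE1 positive replicate 5 (others 5.37% to 5.79%). SOX stood at 10.4% in HB Negative replicate 5 (others 4.08% to 5.85%) and at 3.45% in ES positive replicate 5 (others 6.80% to 7.52%). AP-1 stood at 2.56% in ES Negative replicate 4 (others 13.1% to 16.7%) and at 4.84% in HB positive replicate 4 (others 8.45% to 9.10%). The CTCF part stood at 19.4% in HP Negative replicate 3 (others 5.93% to 9.68%), at 15.5% in HB positive replicate 5 (others 9.69% to 10.8%) and at 14.8% in HE2 positive replicate 4 (others 6.04% to 6.92%). The part of the small sets in these values was not tested.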

How the results depend on the processing

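Of 245 alternative values of the far share comparisons, 22 turned the sign of a difference that was not called, and 1 passed the threshold. That one was HB to HE1 without the 4 HE1 libraries that share fragments (1.30 points, adjusted p = 0.0397, exact permutation test). With a distance of 50 kb, positive minus Negative was -0.576 points in HB and -0.871 in HP, high minus low was -1.01 in HP, and HE1 to HE2 was 0.0749. With 200 kb, positive minus Negative was -0.227 in HP, high minus low -0.380 in HB and ES to HP -0.176. Outside gene bodies, positive minus Negative was -0.0264 in HB and high minus low -0.194 in ES. Transcript starts gave -0.0604 for high minus low in HP, plasmid-identical fragments -0.563 for positive minus Negative in HP, and Medium left out -0.151 for high minus low in HE1. In replicates 1 and 2 alone, positive minus Negative was -0.0944 (HB), -0.140 (HE1, with libraries that share fragments) and -0.306 (HP), while high minus low was -0.105 for HE2 and -0.0890 for HP. In replicates 3 to 5 alone HE2 to HP was 0.596. The cause of these turns was not tested.

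Leaving out 1 replicate, positive minus Negative ran from -0.0510 to 0.677 in ES and from -1.17 to 0.982 in HP, and high minus low from -0.0486 to 1.03 in ES and from -0.128 to 1.06 in HP. The other differences kept their sign in that setting. With the replicate block no call differed, and HB to HE1 stood at 1.11 points (exact sign-flip p = 0.1875, adjusted p = 0.417). Of 330 alternative limma counts, 330 held no called far site or gene row, and none of the 94 motif alternatives, chosen after the data were seen, turned in sign or passed. Libraries of replicates 3 to 5 hold 13 to 747 far fragments, so their shares have wide counting intervals.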
